A study of Rattus norvegicus with 53 samples.

Results

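L6 cells, a rat skeletal muscle line whose myoblasts fuse into myotubes, were compared at hour 6 with 20 nM insulin (Insulin_6) and without insulin (Control_6, 0 nM). The comparison takes 6 of the 53 arrays in the series, 3 with insulin and 3 without, chosen by the culture and hour in their titles and paired by the letter of the title. Each array holds RNA pooled from plates harvested at 320, 340 and 360 min. The letters a, b and c mark repeats of the whole experiment on different days with the same line, so the spread between them is a spread between days and not between independent lines or animals. All cultures had been differentiated in low-serum medium and then kept for 8 h without serum at 5 mM glucose. Plates of Pretreatment_0 and Control_0, taken at time 0, hold the same 2 sets of cultures before insulin and give the background of the comparison. The labels describe a change of medium for the insulin plates and do not say whether that of the control plates was renewed, so insulin and a medium change cannot be told apart here.

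Insulin binds a receptor tyrosine kinase whose substrate proteins recruit PI3-kinase, and the kinase Akt downstream of it drives glucose uptake and glycogen storage in muscle. Akt also keeps FOXO transcription factors out of the nucleus and relieves the brake on mTORC1, the kinase complex that couples nutrients to ribosome production, translation and lipid synthesis. A parallel branch through ERK switches on immediate early genes. FOXO factors are known in muscle for genes of fasting, autophagy and protein breakdown, and ATF4, the transcription factor of the amino acid response, for amino acid transport and synthesis.

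Values are levels on the log2 scale, so a difference of 1 is a doubling, and a gene is read at the brightest of its probe sets. Rises, falls and moves from some levels to others are from the control to the insulin arrays of hour 6. They are not changes over time, except where another hour or time 0 is named. Of 11585 genes tested, 186 were higher with insulin at hour 6 (1.61%) and 259 lower (2.24%) at an adjusted p under 0.05, by limma on the paired differences with Benjamini-Hochberg adjustment over all 22000 tested probe sets. All 445 had the same sign in all 3 letters. The paired test on these same differences favours such genes, so this is no separate evidence. The changes were moderate in size. The median difference was 0.46 for the genes that were higher and -0.48 for those that were lower. Over 1.5-fold were 52 higher and 73 lower genes, and over 2-fold 3 higher and 15 lower. The 3 insulin arrays lay entirely above the control arrays for 536 genes (4.63%) and entirely below for 663 (5.72%). A random order of 3 against 3 arrays gives shares close to these, so a lack of overlap alone is no evidence of a difference. Of the genes that passed, 127 higher and 196 lower ones had no overlap. Most of these calls rest on the pairing of arrays by day. A fit without it left 8 genes higher (0.0691%) and 39 lower (0.337%), all among those above. Leaving out a letter left 57 higher and 96 lower genes without letter a, 100 and 136 without letter b, and 68 and 109 without letter c.

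The cultures carried markers of differentiated myotubes, although the labels call the cells myoblasts, and also many of those listed for myoblasts, cycling cells and fibroblasts. Of 36 such markers 32 were bright enough to be tested, among them Myh3, the embryonic myosin heavy chain (mean level 13.43), Acta1, skeletal actin (13.48), and Myog, the myogenic factor of fusion (12.37), and Myh1, a myosin of mature fibres (10.73), while Myh2, Myh4 and Myh7, other myosins of mature fibres, lay below the lowest tested mean of 5.03. Of the markers of other cells, 6 of 12 listed for macrophages, 3 of 11 for endothelial cells and 4 of 11 for adipocytes were bright enough to be tested, among them Cd14 (7.70), Egfl7 (7.84) and Lpl (9.87). Ptprc and Adgre1 of macrophages, Pecam1 of endothelial cells and Adipoq of adipocytes lay below the tested level. Of 15 markers listed for undifferentiated myoblasts 9 were tested, among them Itga7 (11.66), Ncam1 (11.04) and Cdh15 (10.05), while Myod1 (4.12) lay below the tested level. For cycling cells 28 of 30 were tested, among them Pcna (12.36) and Cdk1 (10.16), and for fibroblasts 14 of 14, among them Col1a2 (13.60) and Thy1 (12.15). The arrays cannot tell which cells of a culture carried which markers. No marker of myotubes, myoblasts, cycling cells, macrophages, endothelial cells, adipocytes or fibroblasts passed the test at hour 6 in either direction. The summed linear level of the myotube markers was 101000 to 171000 on the control arrays and 95100 to 159000 on the insulin arrays, that of the 28 markers of cycling cells 21500 to 31600 and 21000 to 32800, and that of the 14 fibroblast markers 39500 to 53000 and 39800 to 59800. In such bulk RNA, fewer cells of a type and less RNA per cell cannot be told apart. The medians of all arrays were 6.3 to 6.37, and the 6 arrays of hour 6 correlated at 0.9752 to 0.9933. Over all genes, the difference at hour 6 of a letter correlated with the mean of the other letters at 0.397 for a, 0.546 for b and 0.423 for c, and with its own difference at time 0 at 0.11, -0.00055 and -0.17.

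Promoters are shown first for the genes with the largest differences at hour 6, from RefSeq on the build GRCr8, as 250 bases before and 50 after the start of the gene. The promoter table holds 33469 promoters of 27457 symbols, and only the first listed for each symbol was used. Of the 11585 genes 9651 have an entry in that table. Ccng2, which encodes cyclin G2, an atypical cyclin of cell cycle arrest (the promoter is chr14:15097141-15097440 (minus strand)), Klhl24, a substrate adaptor of a ubiquitin ligase (chr11:94382001-94382300 (minus strand)), and Pdk4, a kinase that shuts off pyruvate dehydrogenase (chr4:34568280-34568579 (minus strand)), had the largest falls. Trib3, a pseudokinase induced by amino acid shortage (chr3:161275484-161275783 (minus strand)), Mthfd2, a mitochondrial folate enzyme (chr4:117380301-117380600 (minus strand)), and LOC100909675, a locus without a given name (chr4:12184154-12184453 (minus strand)), had the largest rises. Capitals mark matches to 5 motifs searched on both strands: the FOXO motif GTAAACA, the E-box CACGTG that Myc and its partners bind, TGATGCAA of the C/EBP-ATF composite site, the cyclic AMP response element TGACGTCA, and the sterol element TCACCCCAC.
Ccng2: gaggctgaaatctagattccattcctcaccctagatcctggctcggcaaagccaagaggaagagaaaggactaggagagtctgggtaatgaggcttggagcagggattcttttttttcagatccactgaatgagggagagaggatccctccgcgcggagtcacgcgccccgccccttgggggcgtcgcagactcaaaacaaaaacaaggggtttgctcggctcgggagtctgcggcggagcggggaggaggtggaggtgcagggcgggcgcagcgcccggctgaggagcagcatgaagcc
Klhl24: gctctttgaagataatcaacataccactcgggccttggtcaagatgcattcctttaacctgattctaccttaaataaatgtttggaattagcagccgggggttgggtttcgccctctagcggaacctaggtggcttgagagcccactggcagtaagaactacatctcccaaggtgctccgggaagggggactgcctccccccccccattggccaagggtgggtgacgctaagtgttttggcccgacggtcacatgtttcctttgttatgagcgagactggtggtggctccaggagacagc
Pdk4: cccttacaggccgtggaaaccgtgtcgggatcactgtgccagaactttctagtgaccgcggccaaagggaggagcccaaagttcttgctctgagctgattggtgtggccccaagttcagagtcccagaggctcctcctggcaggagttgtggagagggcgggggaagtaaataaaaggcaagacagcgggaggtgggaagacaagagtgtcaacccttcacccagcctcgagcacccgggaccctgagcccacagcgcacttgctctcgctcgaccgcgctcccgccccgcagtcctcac
Trib3: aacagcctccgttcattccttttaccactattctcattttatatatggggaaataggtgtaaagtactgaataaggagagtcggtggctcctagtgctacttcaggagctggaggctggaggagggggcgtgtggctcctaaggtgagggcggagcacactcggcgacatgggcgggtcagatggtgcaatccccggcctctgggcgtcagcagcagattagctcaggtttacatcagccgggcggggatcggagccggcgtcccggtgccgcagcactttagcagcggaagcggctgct
Mthfd2: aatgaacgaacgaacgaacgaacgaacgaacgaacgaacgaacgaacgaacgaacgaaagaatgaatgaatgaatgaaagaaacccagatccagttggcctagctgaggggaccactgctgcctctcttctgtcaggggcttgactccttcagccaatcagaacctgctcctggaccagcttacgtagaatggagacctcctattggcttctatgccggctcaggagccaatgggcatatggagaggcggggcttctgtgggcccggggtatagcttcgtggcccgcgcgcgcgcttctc
LOC100909675: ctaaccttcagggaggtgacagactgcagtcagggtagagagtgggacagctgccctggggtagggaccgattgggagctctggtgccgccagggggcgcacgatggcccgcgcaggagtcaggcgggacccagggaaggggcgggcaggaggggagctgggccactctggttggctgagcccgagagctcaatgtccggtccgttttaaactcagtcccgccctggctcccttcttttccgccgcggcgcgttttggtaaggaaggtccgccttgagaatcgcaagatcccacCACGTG
Only the last of these 6 windows holds a match, an E-box at its very end, 44 bases after the start. The search covers exact letters in 300 bases and says nothing about sites elsewhere.

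Across all genes that passed, motif counts differed between the directions. The FOXO motif was found in 25 of 214 promoters of genes that were lower (11.7%), in 2 of 155 of those that were higher (1.29%), and in 2.29% of the 9651 tested genes and 3.76% of all 27457 promoters (1 per symbol). The E-box was found in 34 of the 155 promoters of higher genes (21.9%) and 27 of the 214 of lower genes (12.6%), against 9.48% of tested genes and 6.65% of all promoters. TGATGCAA was found in 7 of the 155 (4.52%) and in 0 of the 214, against 0.56% of tested genes and 0.743% of all promoters. The cyclic AMP element was found in 8 of the 155 (5.16%) and 4 of the 214 (1.87%), against 3.18% and 1.91%. The sterol element was found in 1 and 2 of them, against 0.404% of tested genes and 0.495% of all. These are descriptions without a test. The stretches that follow were chosen after these counts were seen. They are the FOXO matches of the 3 largest falls among the named genes with one, in Tmem140, a membrane protein of unclear function (chr4:64503439-64503497 (plus strand)), Hbp1, a repressor of cell cycle entry (chr6:54283394-54283452 (minus strand)), and Bcl2l11, the pro-apoptotic protein Bim (chr3:135819812-135819870 (plus strand)), with up to 26 bases on each side and the motif in capitals on either strand. The other 3 are the TGATGCAA matches of Chac1, a glutathione-degrading enzyme of the ATF4 program (chr3:126795938-126795997 (plus strand)), Slc1a4, a neutral amino acid transporter (chr14:98761764-98761812 (minus strand)), and Yars1, the tyrosyl-tRNA synthetase (chr5:146820175-146820212 (plus strand)).
Tmem140: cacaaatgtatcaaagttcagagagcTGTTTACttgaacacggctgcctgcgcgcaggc
Hbp1: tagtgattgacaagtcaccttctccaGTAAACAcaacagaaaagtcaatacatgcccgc
Bcl2l11: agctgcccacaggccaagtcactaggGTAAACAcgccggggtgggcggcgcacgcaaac
Chac1: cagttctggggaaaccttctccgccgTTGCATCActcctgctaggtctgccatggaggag
Slc1a4: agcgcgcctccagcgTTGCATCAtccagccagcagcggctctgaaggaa
Yars1: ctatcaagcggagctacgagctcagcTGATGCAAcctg
The FOXO matches begin 156, 167 and 204 bases before the starts of Tmem140, Hbp1 and Bcl2l11. Of the lower genes with this motif, Pik3ip1, an inhibitor of PI3-kinase (-1.08), Ypel3 (-1.01), Mxi1, a Myc antagonist (-0.90), Wdr45, an autophagy protein (-0.61), and Klf9, a FOXO-regulated Kruppel-like factor (-0.39), differed at adjusted p = 4.93e-06, 0.000126, 4.58e-06, 4.97e-05 and 0.0036. Among genes described below, Tsr1, which was higher (0.61), and Insr (-0.08) and Trim63 (-0.28), which did not pass, also hold the FOXO motif. Sesn1, Cdkn1b and Rbl2, lower members of the FOXO list below, hold no match to it. Of the higher genes with TGATGCAA, Gar1 and Gtpbp4, both of ribosome assembly, differed by 0.61 each, Tars1 by 0.37 and Nars1 by 0.36, both aminoacyl-tRNA synthetases. Pik3ip1, Ypel3, Wdr45, Gtpbp4 and Nars1 are named here for their motif, after their values were seen.

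The largest differences were falls. Ccng2 had levels of 10.08, 9.45 and 10.25 on the control arrays of letters a, b and c and of 7.99, 8.13 and 8.82 on the insulin arrays. Every insulin array lay below every control array. The difference was -1.62 ± 0.19 (SE of the fit, n = 3 pairs), 3.06-fold lower, with an adjusted p of 1.27e-05. Here and below, the variance behind a ± on a difference is estimated from the pairs of all hours. It is not the spread of the 3 pairs of hour 6, which can be wider. The 3 pairs of Ccng2 differed by -2.09, -1.32 and -1.43. Klhl24 stood at 8.12, 7.95 and 8.03 without insulin and at 6.25, 6.72 and 6.50 with it. The groups were far apart, the control arrays within 0.09 (SD) of each other, and the difference of -1.54 ± 0.21 passed at 7.17e-05. Its 2 other probe sets differed by -1.22 and -1.40. Pdk4, whose product keeps pyruvate out of oxidation in the fasted state, was at 6.66, 6.36 and 7.15 without insulin and at 4.95, 5.31 and 5.66 with it. No insulin array reached a control array, and the difference of -1.42 ± 0.18 passed at 4.97e-05. The gene was dim, and its other, still dimmer probe set (mean level 5.46) differed by -0.11 and did not pass.

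Tmem140 read 7.67, 7.06 and 6.72 in the control culture and 5.84, 5.97 and 5.65 in the insulin culture. Its spread was wider without insulin (SD 0.48) than with it (0.16), with no overlap, and the difference was -1.33 ± 0.16 (adjusted p = 2.69e-05). Pnrc1, a nuclear receptor coactivator, was at 10.37, 9.92 and 9.61 and at 9.19, 8.62 and 8.18 in the same order of cultures and letters. Letter a was the highest and letter c the lowest in both cultures, with no overlap, and the paired difference of -1.30 ± 0.20 passed (0.000326) and the unpaired one did not (0.329). It already differed by -0.33 at time 0, and relative to that by -0.97 (0.149). Hbp1 had 9.61, 9.51 and 9.37 against 8.05, 8.33 and 8.21. The 3 arrays of each culture lay within 0.14 (SD) of each other, and the difference of -1.30 ± 0.11 passed with the pairing (3.69e-07) and without it (2.43e-05).

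The next falls had other roles. Pdcd4, an inhibitor of the helicase eIF4A that is degraded after growth factor stimulation, fell by 1.25 ± 0.12 (1.1e-06), and 3 of its 4 other tested probe sets fell by 1.10 to 1.22. Tcp11l2 fell by 1.23, Tcim by 1.22 and Atosa by 1.18. Of 2 dimmer probe sets of Atosa, the first fell by 1.27 and the other differed by -0.06. Bcl2l11 (-1.20 ± 0.17, 0.000157) was at 9.57, 9.25 and 9.78 without insulin and at 8.52, 8.05 and 8.43 with it, with no overlap. Its dim other probe set differed by -0.09. Ndrg1, a stress-induced gene also known from hypoxia, fell by 1.18 ± 0.10 (3.69e-07). All 12 of these falls passed with any of the letters left out, with differences from -1.06 (Atosa without letter c) to -1.76 (Ccng2 without letter b).

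**Figure D1:**
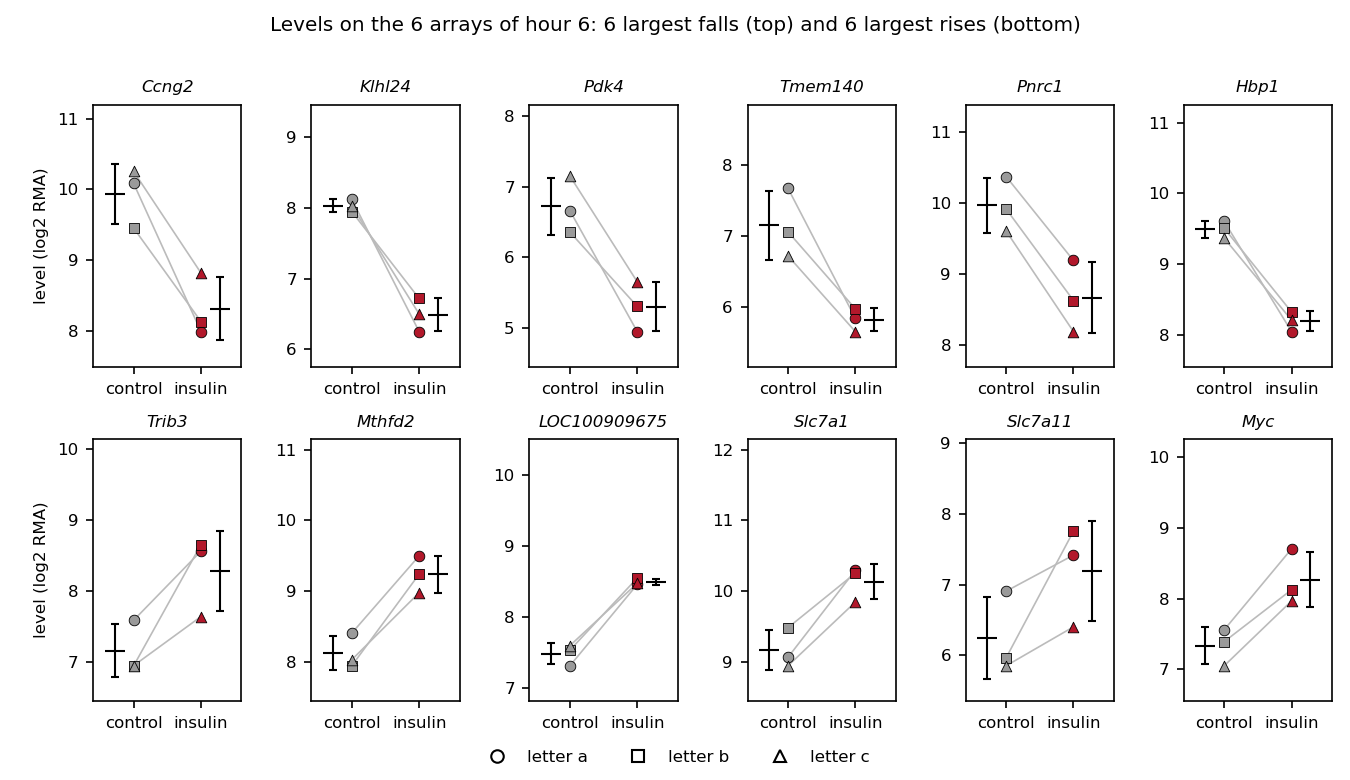
Levels (log2 RMA) of the 6 genes with the largest falls (top row) and the 6 with the largest rises (bottom row) on the 3 control and 3 insulin arrays of hour 6, with lines joining arrays of the same letter and bars for the mean ± SD. In 11 of the 12 panels the cultures are separated, and in that of Slc7a11 the control array of letter a lies above the insulin array of letter c.

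The largest rises were smaller. Trib3 had levels of 7.59, 6.94 and 6.95 on the control arrays and 8.56, 8.66 and 7.64 on the insulin arrays. The insulin array of letter c exceeded the highest control array by only a little, and the difference was 1.13 ± 0.19, 2.18-fold higher (adjusted p = 0.0012). Its 2 other probe sets rose by 1.66 and 1.49. Without letter b the difference was 0.84 and missed the threshold (0.0517). Mthfd2 was at 8.41, 7.95 and 8.03 without insulin and at 9.50, 9.24 and 8.98 with it. The cultures were separated by more than their SDs of 0.25 and 0.26, and the difference of 1.11 ± 0.11 passed with the pairing (2.31e-06) and without (0.000339). LOC100909675 rose from 7.31, 7.53 and 7.59 to 8.46, 8.55 and 8.47, by 1.02 ± 0.11 (9.44e-06), with insulin arrays that lay very close together.

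Slc7a1, the transporter of cationic amino acids, read 9.07, 9.49 and 8.95 in the control culture and 10.30, 10.26 and 9.85 in the insulin culture. All letters moved alike, by 0.97 ± 0.11 (adjusted p = 1.31e-05), and a second bright probe set rose by 0.56. Slc7a11, the cystine and glutamate exchanger, was at 6.91, 5.97 and 5.85 without insulin and at 7.42, 7.75 and 6.40 with it. These arrays overlapped, letter b rose by 1.79 where the others rose by 0.51 and 0.55, and the difference of 0.95 ± 0.26 passed narrowly (0.0455) and with no letter left out (0.53, adjusted p = 0.552, without letter b). Myc, the transcription factor of growth and ribosome production, had 7.56, 7.39 and 7.05 against 8.70, 8.12 and 7.97. The lowest insulin array lay above the highest control array, and the difference was 0.93 ± 0.13 (0.000155), though not past the threshold without the pairing (0.381).

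Of the remaining rises, Snhg4, a host gene of small nucleolar RNAs, rose by 0.92, Slc30a1, the zinc exporter, by 0.92, Tnfrsf12a, the receptor of the cytokine TWEAK, by 0.88, LOC100912041 by 0.87, E2f2, a factor of S-phase entry, by 0.86, and Trmt61a, a tRNA methyltransferase, by 0.85. Slc30a1 and E2f2 missed the threshold without letter a (adjusted p = 0.059 and 0.0525), and Tnfrsf12a without letter a (0.0554) or c (0.0512). LOC100912041 and Trmt61a passed also without the pairing (0.00204 and 0.0273).

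**Figure D2:**
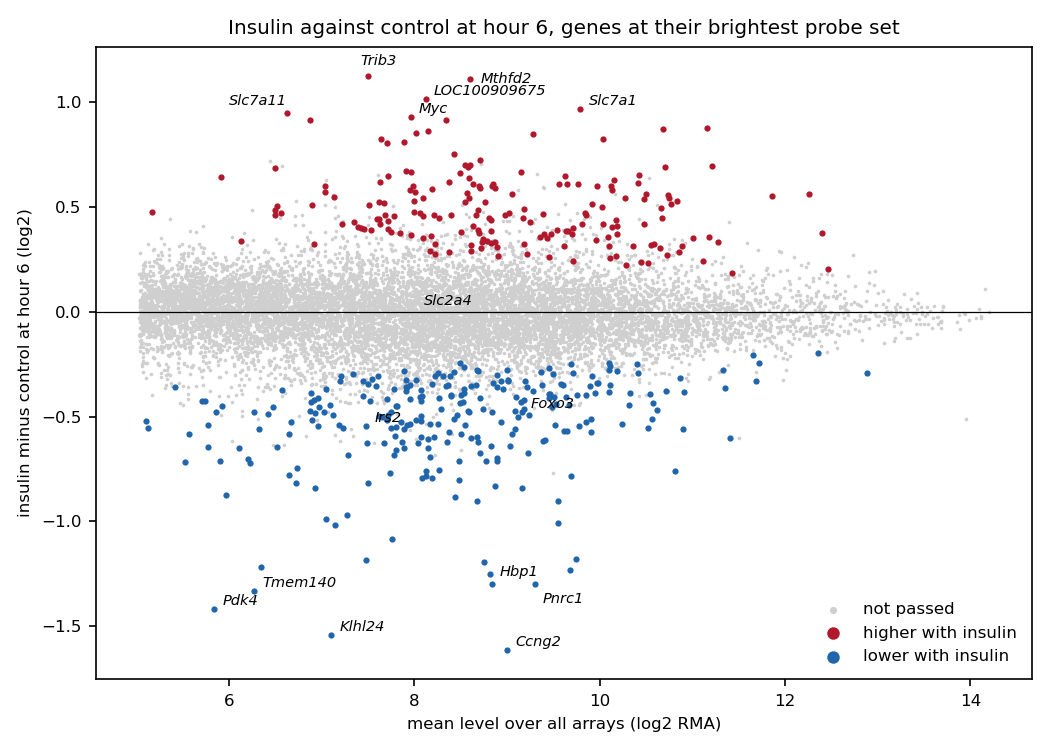
Insulin minus control at hour 6 (log2) of the 11585 tested genes against their mean level over all arrays (log2 RMA), with genes that were higher in red, lower in blue and not passed in grey. The 186 red and 259 blue genes span all but the brightest levels, and the falls reach -1.62 where the rises reach 1.13.

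Genes regulated by FOXO made up the group with the most falls. Of 42 tested FOXO factors and targets, 19 were lower and 1 higher, against 2.24% and 1.61% of all genes, with a median difference of -0.26 where that of all genes was -0.01. The members of this and the following lists were picked with earlier results of these arrays known, so the counts are no independent evidence of direction. The shares of all genes, 1.61% higher and 2.24% lower, are the background for each list below. Beside Ccng2, Klhl24, Pdk4, Pnrc1 and Bcl2l11, the falls included Sesn1, a stress-induced inhibitor of mTORC1 (-0.82 ± 0.13, adjusted p = 0.000512), Txnip, which restrains glucose uptake (-0.76 ± 0.15, 0.00397), Rbl2, a pocket protein of quiescence (-0.60 ± 0.10, 0.00126), and Cdkn1b, the Cdk inhibitor p27 (-0.55 ± 0.11, 0.00451). The smaller falls were those of Ulk1 (-0.55), Irs2 (-0.54), Foxo3 (-0.48), Sgk1 (-0.48), Klf9 (-0.39), Cited2 (-0.39), Rictor (-0.35), Zfand5 (-0.28) and Ulk2 (-0.26). Ccnd1, cyclin D1, which FOXO factors repress, was the member that was higher (0.56 ± 0.14, 0.0256), from 11.10, 12.26 and 12.03 to 12.17, 12.32 and 12.58, with overlapping arrays a difference of 0.30 without letter a (adjusted p = 0.474), and no call without letter c (0.143). Txnip missed the threshold without letter a (0.068) or c (0.0721), and Cdkn1b without letter c (0.118). Without the pairing 6 members were lower and 0 higher. Another probe set of Sesn1 differed by -0.13.

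Of 41 tested genes of autophagy 8 were lower (19.5%, against 2.24% of all genes) and 0 higher, and 33 did not pass (median -0.14). Of the 41, 34 had a negative difference, as had 6123 of all 11585 genes. Gabarapl1, which is conjugated to autophagosome membranes, went from 8.71, 8.58 and 8.20 to 7.88, 7.81 and 7.71, a difference of -0.69 ± 0.09 (adjusted p = 4.74e-05) with no overlap. Bnip3l, a receptor for the removal of mitochondria, went from 9.67, 9.63 and 9.49 to 8.97, 8.99 and 8.80 (-0.67 ± 0.07, 2.31e-06). Its other probe set fell by 0.95. Rb1cc1, a scaffold of the initiating ULK complex, fell by 0.62 ± 0.11 (0.00127), Atg13 of the same complex by 0.60, and Ulk1 and Ulk2, its kinases, as above. Atg14 (-0.65) and Pik3c3 (-0.42), subunits of the lipid kinase that follows, also fell, though Atg14 missed the threshold without letter a (0.217) or c (0.0773) and Pik3c3 without letter c (0.0613). Gabarapl1, Bnip3l and Rb1cc1 were the 3 members that passed without the pairing.

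The genes of muscle atrophy were mostly below 0 and rarely passed. Of 15 tested, 1 was lower, Zfand5, a ubiquitin-binding protein, at -0.28 (adjusted p = 0.023). It passed with no letter left out (0.0546 to 0.208). Trim63, the ubiquitin ligase MuRF1, read 6.96, 6.15 and 5.34 in the control culture and 6.70, 6.14 and 4.77 in the insulin culture. The letters differed far more than the cultures, and the difference of -0.28 ± 0.14 did not pass (0.408). Fbxo32, the ligase atrogin-1, is on the array but its mean level lay below that of the tested probe sets. Of 41 proteasome subunits 0 passed, with a median of -0.01.

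Of 17 genes of the insulin receptor and its proximal partners, 2 were lower and 0 higher (median -0.01). Irs2, a receptor substrate, had 7.70, 7.70 and 7.65 on the control arrays and 7.22, 7.01 and 7.18 on the insulin arrays. The difference of -0.54 ± 0.11 passed (adjusted p = 0.00409), and also without the pairing (0.0217), but not without letter b (0.0762). Gab1, an adaptor that docks onto activated receptors, fell by 0.65 ± 0.09 (7.86e-05). Insr, the receptor, differed by -0.08 ± 0.12 (0.886) and Irs1 by 0.26 ± 0.15 (0.515), and neither passed. Of 38 genes of PI3-kinase, Akt and mTORC1, 4 were lower (10.5%, against 2.24% of all genes) and 0 higher. The lower ones were Sesn1, Ddit4l, an inhibitor of mTORC1 (-0.80 ± 0.15, 0.00203), Pik3c3 and Rictor, a subunit of mTORC2 (-0.35 ± 0.08, 0.0123). Ddit4l missed the threshold without letter a (0.0728), and Rictor without letter b (0.137) or c (0.112). Tsc2 (-0.08 ± 0.18) and Rheb (-0.03 ± 0.06), the switch upstream of mTORC1, did not pass. Foxo3 went from 9.66, 9.45 and 9.17 to 9.24, 8.93 and 8.66. The letters kept their order in both cultures, and the paired difference of -0.48 ± 0.08 passed (0.00127) while the unpaired one did not (0.944). Foxo1 was at -0.04 ± 0.09 and did not pass.

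Slc2a1, the transporter GLUT1 of basal uptake, had 7.29, 7.65 and 8.00 without insulin and 7.93, 8.36 and 8.29 with it. The arrays overlapped and every pair rose, with a difference of 0.54 ± 0.11 (adjusted p = 0.00606) that missed the threshold without letter a (0.0977) or b (0.107). Slc2a3, GLUT3, rose by 0.52 ± 0.13 (0.0263) and passed with no letter left out (0.0653 to 0.332). Slc2a4, the insulin-responsive transporter GLUT4, was at 8.09, 8.26 and 8.05 and at 8.19, 8.16 and 8.10. The cultures coincided, with a difference of 0.01 ± 0.09 (0.984). Hk2, hexokinase 2, had 6.41, 5.58 and 5.34 against 7.21, 6.48 and 5.80. It was 0.72 ± 0.20 higher, with an adjusted p of 0.0537 that did not pass. It passed in 6 of the alternative settings (0.0193 to 0.0441), and not with any letter left out. Of 28 genes of glucose transport and glycolysis 2 were higher and 1, Txnip, lower (median 0.00), and Gys1, glycogen synthase, differed by 0.13 ± 0.13 among 13 glycogen genes of which 0 passed. Of 9 pyruvate dehydrogenase kinases and phosphatases 1, Pdk4, passed. Of 31 genes of fatty acid oxidation 2 were lower and 0 higher (median -0.10): Cpt1a, the gate of mitochondrial uptake (-0.40, 0.0298), and Acadl (-0.28, 0.0125). Cpt1a passed with no letter left out (0.0552 to 0.338), and Acadl missed the threshold without letter a (0.177) or c (0.102). The other probe set of Cpt1a differed by -0.35 and did not pass.

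Of 102 tested ribosome biogenesis factors 30 were higher (29.4%, against 1.61% of all genes) and 0 lower. A positive difference was found for 100 of the 102 and for 5462 of all 11585 genes. The median was 0.25 over the list and 0.26, 0.24 and 0.27 in letters a, b and c. At time 0 the median of the same genes was 0.05. Tsr1, a maturation factor of the small subunit, went from 9.39, 9.43 and 9.05 to 10.06, 10.00 and 9.64. All arrays with insulin lay above all without, and the difference was 0.61 ± 0.08 (adjusted p = 5.53e-05). Gnl3, nucleostemin, rose by 0.60 ± 0.07 (1.31e-05), Gar1, of the pseudouridylation complex, by 0.61 ± 0.10 (0.000637), and Rrs1, of 5S ribonucleoprotein assembly, by 0.60 ± 0.12 (0.00544). Rrs1 missed the threshold without letter a (0.0611) or b (0.114). The box C/D proteins Nop56 (0.56) and Nop58 (0.54), the methyltransferase Nop2 (0.56) and the helicase Ddx21 (0.54) rose with them. The differences of the list ran from -0.10 to 0.61, and without the pairing 1 member, Wdr43, passed.

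Of 36 subunits and regulators of RNA polymerases I and III, 6 were higher and 1 lower, and 29 did not pass (median 0.06). The higher ones were Polr1g (0.62), Taf1d (0.59), Polr1e (0.58), Polr1b (0.46) and Polr1f (0.39) of polymerase I or its initiation factor, and Polr2h (0.30), a subunit shared by the polymerases. Polr1e, at 7.56, 7.60 and 7.42 without insulin and 8.08, 8.22 and 8.03 with it, passed with any letter left out, but Polr1g with none (0.0528 to 0.0909) and Taf1d not without a (0.481) or b (0.202). Maf1, the repressor of RNA polymerase III, was the member that was lower. It went from 9.84, 9.76 and 9.57 to 9.18, 9.18 and 8.97, a difference of -0.61 ± 0.08 (adjusted p = 7.33e-05) with no overlap, and it passed without the pairing (0.0307). Of 42 cytosolic ribosomal proteins 0 passed, with a median of -0.01.

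Translation factors gave few calls. Of 45 initiation factors and regulators 3 were higher (6.67%, against 1.61% of all genes) and 1, Pdcd4, lower (2.22%, against 2.24%). Eif4a1, the helicase that Pdcd4 restrains, rose by 0.37 ± 0.09 (adjusted p = 0.0165), Eif4ebp1, the repressor of the cap-binding factor, by 0.32 ± 0.07 (0.0161), and Eif4e, that factor itself, by 0.24 ± 0.06 (0.0201). Eif4a1 and Eif4e were at 0.22 and 0.16 without letter c (0.402 and 0.375) and did not pass without letter a, and Eif4ebp1 passed with no letter left out (0.101 to 0.137). Another 2 probe sets of Eif4e differed by 0.18 and -0.07 without passing.

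Of 28 genes of ATF4 and the amino acid response 6 were higher and 0 lower (median 0.27, and 0.32, 0.08 and 0.05 in letters a, b and c), of 18 amino acid transporters 5 higher and 2 lower (0.08), of 23 aminoacyl-tRNA synthetases and partners 5 higher and 0 lower (0.24), and of 22 genes of serine and folate metabolism 3 higher and 1 lower (0.06). Atf4 itself rose by 0.55 and Atf3, a stress factor next to it, by 0.60 ± 0.10 (adjusted p = 0.000925). Chac1 went from 8.46, 7.74 and 8.28 to 9.44, 8.84 and 8.46. The arrays overlapped, and the difference of 0.75 ± 0.20 (0.0378) missed the threshold without letter a (0.311) or b (0.358). Aldh18a1, of proline synthesis, rose by 0.58 ± 0.16 (0.04), but not past the threshold without a (0.344) or b (0.311). Psph, the last enzyme of serine synthesis, rose by 0.67 ± 0.15 (0.0138) and passed with no letter left out (0.0624 to 0.183). Mat2a, the catalytic subunit that makes S-adenosylmethionine, rose by 0.50 ± 0.08 (0.000701), and Mat2b, its regulatory subunit, fell by 0.40 ± 0.08 (0.0066), from 9.79, 10.20 and 10.04 to 9.37, 9.82 and 9.64. Mat2b missed the threshold without letter a (0.0751) or c (0.0664).

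Among the transporters, Slc7a5, the large neutral amino acid carrier LAT1, had 8.89, 8.18 and 7.32 without insulin and 9.49, 8.69 and 8.20 with it. The letters were further apart than the cultures, so that the groups overlapped while every pair rose, by 0.66 ± 0.13 (adjusted p = 0.00389; 0.0991 without letter c). At time 0 the same gene was lower in the culture that was to receive insulin, at -0.71, and relative to that difference it rose by 1.37 (0.00037). Its partner Slc3a2 rose by 0.50. Slc1a4 rose by 0.65 ± 0.15 (0.0182), but not past the threshold without letter a (0.227) or b (0.166). The 2 transporters that were lower were Slc38a2 (-0.33) and Slc43a2 (-0.32). Of the synthetases, Eef1e1, a component of the multisynthetase complex, rose by 0.63 ± 0.12 (0.00389), Yars1 by 0.61 ± 0.11 (0.00268), Aimp2, another component, by 0.45 ± 0.08 (0.00302) and Tars1 by 0.37 ± 0.09 (0.0177). Each of these 4 missed the threshold without 1 letter or more: Eef1e1 without c (0.104), Yars1 without a (0.0782), Aimp2 without c (0.0682), and Tars1 without a (0.101) or b (0.273). Amd1, the 1 call among 13 genes of polyamine synthesis and turnover, rose by 0.47 ± 0.09 (0.00502; 0.122 without letter a). It already differed by 0.29 at time 0, and relative to that by 0.19 (0.774).

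Of 39 genes of sterol and fatty acid synthesis 7 were higher (17.9%, against 1.61% of all genes) and 0 lower, and 32 did not pass. The median was 0.25 against -0.08 at time 0. Sqle, squalene epoxidase, went from 9.98, 9.39 and 9.80 to 10.91, 10.16 and 10.57, with no overlap and a difference of 0.82 ± 0.12 (adjusted p = 0.000328). Mvd (0.70 ± 0.19, 0.0442), Idi1 (0.65 ± 0.16, 0.0261) and Dhcr7 (0.60 ± 0.13, 0.0123), of the same pathway, rose in every pair while their arrays overlapped, since letter b was lower in both cultures. Mvd and Idi1 passed with no letter left out (0.077 to 0.312 and 0.127 to 0.178), and Dhcr7 not without letter a (0.271) or b (0.0978). Fasn, fatty acid synthase (0.56), Acat2 (0.54) and Acly, ATP citrate lyase (0.40), were the other members. Without the pairing 0 of the 7 passed. Of 70 subunits of oxidative phosphorylation 0 passed, with a median of -0.05.

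**Figure D3:**
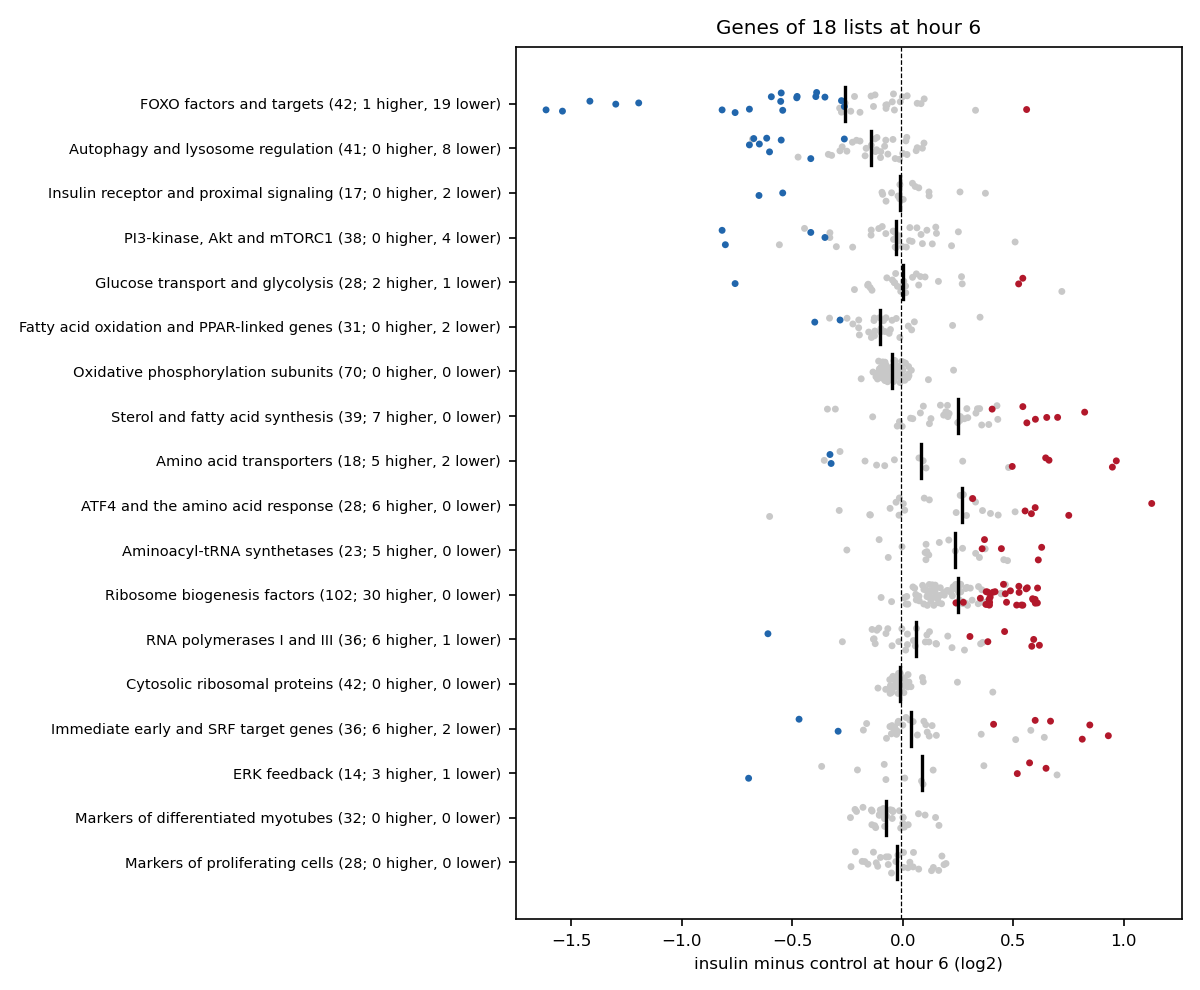
Insulin minus control at hour 6 (log2) of the tested genes of 18 lists, each dot a gene (red higher, blue lower, grey not passed), with a black bar at the median of the list and a dashed line at that of all genes (-0.01). Blue dots gather in the FOXO and autophagy lists, and red ones in ribosome biogenesis, where 100 of 102 genes lie above 0.

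Some immediate early genes differed at this hour. Of 36 tested with SRF targets 6 were higher and 2 lower (median 0.04). Egr1, a zinc finger factor of the ERK branch, had 8.63, 8.72 and 7.54 without insulin and 9.76, 9.17 and 8.50 with it. The arrays overlapped because letter c was low in both cultures, and the difference of 0.85 ± 0.19 (adjusted p = 0.0134) missed the threshold without letter a (0.206) or c (0.135). Fosl1, a Fos family member, rose by 0.81 ± 0.21 (0.0358; 0.137 to 0.274 with a letter left out), Ier2 by 0.67 ± 0.12 (0.00217) and Srf, the serum response factor, by 0.41 ± 0.09 (0.00889; 0.129 without letter a and 0.118 without c). Jun (-0.47) and Btg1 (-0.29) were lower, and Fos at -0.06 ± 0.16 did not pass. Of 14 genes of ERK feedback 3 were higher and 1 lower. Dusp6, a phosphatase of ERK, rose by 0.65 ± 0.10 (0.000466), and its 2 other probe sets by 0.83 and 0.69. Spry4 rose by 0.57 (0.00771; 0.143 without letter c) and Errfi1, an inhibitor of the EGF receptor, by 0.52 (0.0063; 0.0993 without a and 0.102 without c). Dusp1, a phosphatase of stress kinases, fell by 0.70 ± 0.19 (0.0481; 0.0955 to 0.321 with a letter left out). It already differed by -0.37 at time 0, and relative to that by -0.33 (0.806). Its other, dimmer probe set differed by -0.40 and did not pass.

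While Myc rose, Mxi1 and Mxd4, which compete with it for the partner Max, fell. Mxi1 went from 10.14, 9.85 and 10.05 to 9.20, 9.14 and 8.999, a difference of -0.90 ± 0.10 (adjusted p = 4.58e-06) with no overlap, also past the threshold without the pairing (0.000208). Mxd4 went from 8.68, 8.21 and 8.46 to 8.25, 7.38 and 7.34. Its arrays overlapped, it already differed by -0.37 at time 0, and the difference of -0.79 ± 0.17 (0.0102) missed the threshold without letter b (0.0835) or c (0.195). The other 10 tested members of 13 did not pass.

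Vegfa, the endothelial growth factor, rose by 0.70 ± 0.14 (adjusted p = 0.00384; 0.133 without letter a), and of 20 hypoxia-response genes 2 were higher, Vegfa and Slc2a1, and 2 lower, Ndrg1 and Bnip3l. Nr1d2, the clock repressor Rev-erb beta, fell by 0.56 ± 0.08 (0.000326) and Dbp, a clock output, by 0.42 ± 0.08 (0.00502; 0.0694 without letter a and 0.109 without c), the 2 calls among 20 clock genes. Of 23 G1 cyclins, cyclins G and Cdk inhibitors 2 were higher, Ccnd1 and Ccne1 (0.47), and 4 lower, Ccng2, Rbl2, Cdkn1b and Ccni (-0.21). Of 14 members of the Bcl-2 family 2 were lower, Bcl2l11 and Bnip3l. Inhba, a subunit of activin, rose by 0.51 ± 0.13 (0.0254) and Smad4, the common Smad, fell by 0.31 ± 0.08 (0.0484), the calls among 32 genes of activin, TGF-beta and BMP signaling (3.12% in each direction, near the 1.61% and 2.24% of all genes). Inhba missed the threshold without letter a (0.395) or c (0.108), and Smad4 without any of them (0.156 to 0.331). Other probe sets of Inhba (0.18), Smad4 (-0.25) and Vegfa (0.26) had the same sign and did not pass. Tnfaip3, an inhibitor of NF-kappaB and the 1 call among 21 of its regulators and chemokines, rose by 0.67 ± 0.17 (0.0309; 0.103 to 0.227 with a letter left out). The chaperones Hspa9 (0.30, 0.0236) and Tcp1 (0.20, 0.0147) were the 2 calls among 36. Hspa9 passed with no letter left out (0.0835 to 0.185), and Tcp1 not without b (0.144) or c (0.163). The other probe sets of Hspa9 differed by 0.21 to 0.42 and did not pass.

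The differences had been present for some hours at hour 6. Before insulin 0 genes passed the test (591 at an unadjusted p under 0.05, near the share that no difference would give). This does not make the cultures equal for each gene, and Slc7a5 stood at -0.71. The genes called at hour 6 had a median difference at time 0 of 0.03 (higher) and -0.02 (lower). At hours 1 to 4 the same medians were -0.03, 0.06, 0.19 and 0.29 for the higher genes and -0.01, -0.08, -0.15 and -0.32 for the lower. At hour 5 they were 0.42 and -0.40, with the sign of hour 6 in 186 of 186 and 258 of 259 genes. At hours 7 and 8 they were 0.41 and 0.44 against -0.43 and -0.48, and all kept the sign. None of these hours shares an array with hour 6. The hours of a letter come from the same repeat of the experiment, though, and all hours enter the variance behind the calls. They are thus no further independent repeats. From hour 5 to hour 6 and from hour 6 to hour 7 the difference changed past the threshold for 0 genes by limma (115 and 69 at an unadjusted p under 0.05). Both counts are under the 0.05 share of 11585 genes that independent errors would give. The reason for these low counts was not tested, and 0 calls do not show that the differences held still. Against hours 1 and 2, the difference at hour 6 had moved up for 97 genes (0.837%) and down for 97 (0.837%). Against time 0 it had moved up for 35 (0.302%) and down for 48 (0.414%), among them Hbp1 (-1.26, 0.0002), Pdcd4 (-1.37, 0.00017), Ndrg1 (-1.16, 0.00017), Mthfd2 (1.16, 0.00046) and Slc7a5.

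The leading genes reached hour 6 along different courses. Pdk4 differed by 0.16 at hour 1, -0.92 at hour 2 and -1.39 at hour 5. Klhl24 was still at -0.03 at hour 2 and came down through -0.56 and -1.01 at hours 3 and 4 to -1.34 at hour 5. Pnrc1 was lowest at hour 3 (-1.74) and lay at -0.91 by hour 7. Irs2 held a nearly constant difference from hour 2 (-0.55) to hour 8 (-0.60). Egr1 stood at 0.99 at hour 2, 1.25 at hour 5, 0.40 at hour 7 and 0.19 at hour 8. Chac1 was highest at hours 3 and 4 (0.97 and 0.98) and at 0.53 by hour 7. Mthfd2 rose from -0.10 at hour 2 to 1.07 at hour 5 and stayed at 1.02 at hour 7. Slc7a5 moved from -0.71 at time 0 through -0.08 at hour 4 to 0.83 at hour 7. None of the steps between hours 5, 6 and 7 passed the test for any of these genes.

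**Figure D4:**
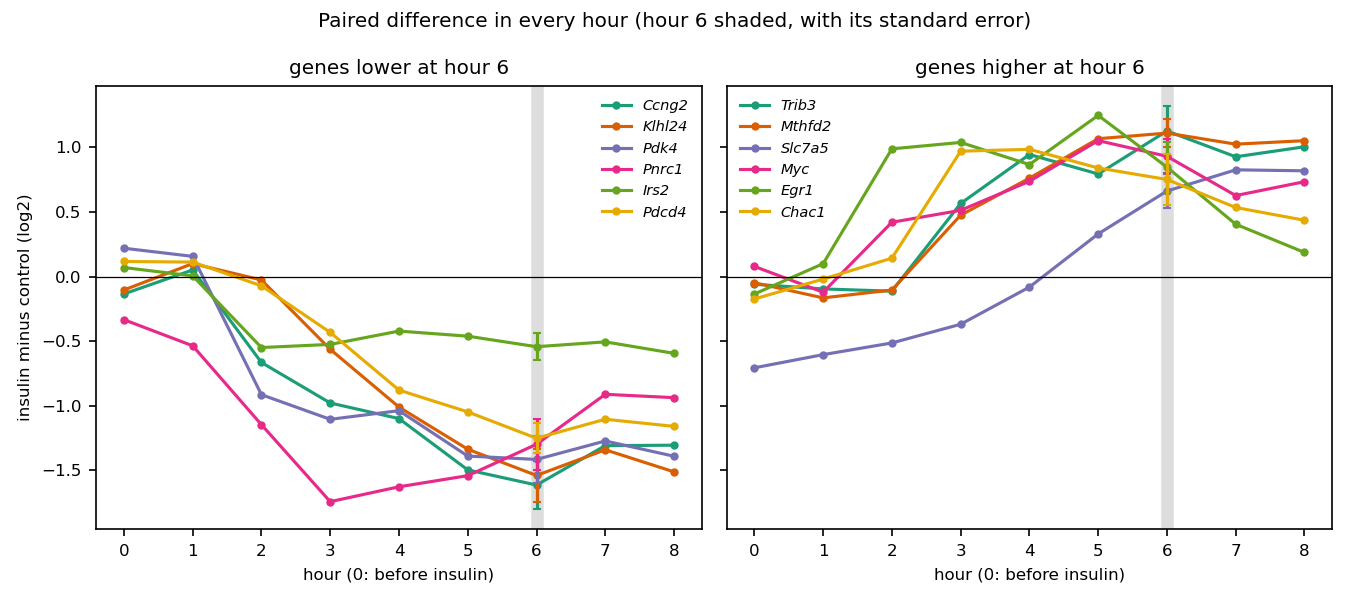
Paired insulin minus control difference (log2) from time 0 to hour 8 of 6 genes lower (left) and 6 genes higher (right) at hour 6, the hour in grey with its standard error. Pdk4 and Ccng2 are low from hour 2 on, Klhl24 and Pdcd4 from hour 3, and Egr1 returns from 1.25 at hour 5 to 0.19 at hour 8.

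The levels of the 2 cultures at time 0 show from where each gene had come. In the control culture 848 genes were higher (7.32%) and 467 lower (4.03%) at hour 6 than at time 0, and in the insulin culture 183 higher (1.58%) and 224 lower (1.93%), by limma on group means with the letter as a block. The control change shares the Control_6 arrays with the main comparison and the insulin change the Insulin_6 arrays, so both are given as values only. Ccng2 changed by 1.29 in the control culture and by -0.19 in the insulin culture, Pdk4 by 1.66 and 0.02, and Tmem140 by 1.27 and -0.07. Bcl2l11 changed by 1.47 and 0.38, and Ndrg1 by 1.61 and 0.46. Slc7a1 changed by -0.89 in the control culture and by 0.06 in the insulin culture, E2f2 by -1.22 and -0.01, and Slc30a1 by -1.17 and -0.10. Egr1 changed by -2.69 and -1.71, and Dusp6 by -1.95 and -1.46. Trib3 changed by -0.14 without insulin and by 1.04 with it, Mvd by 0.15 and 1.04, and Irs2 by -0.07 and -0.69. Mthfd2 changed by -0.46 and 0.70.

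**Figure D5:**
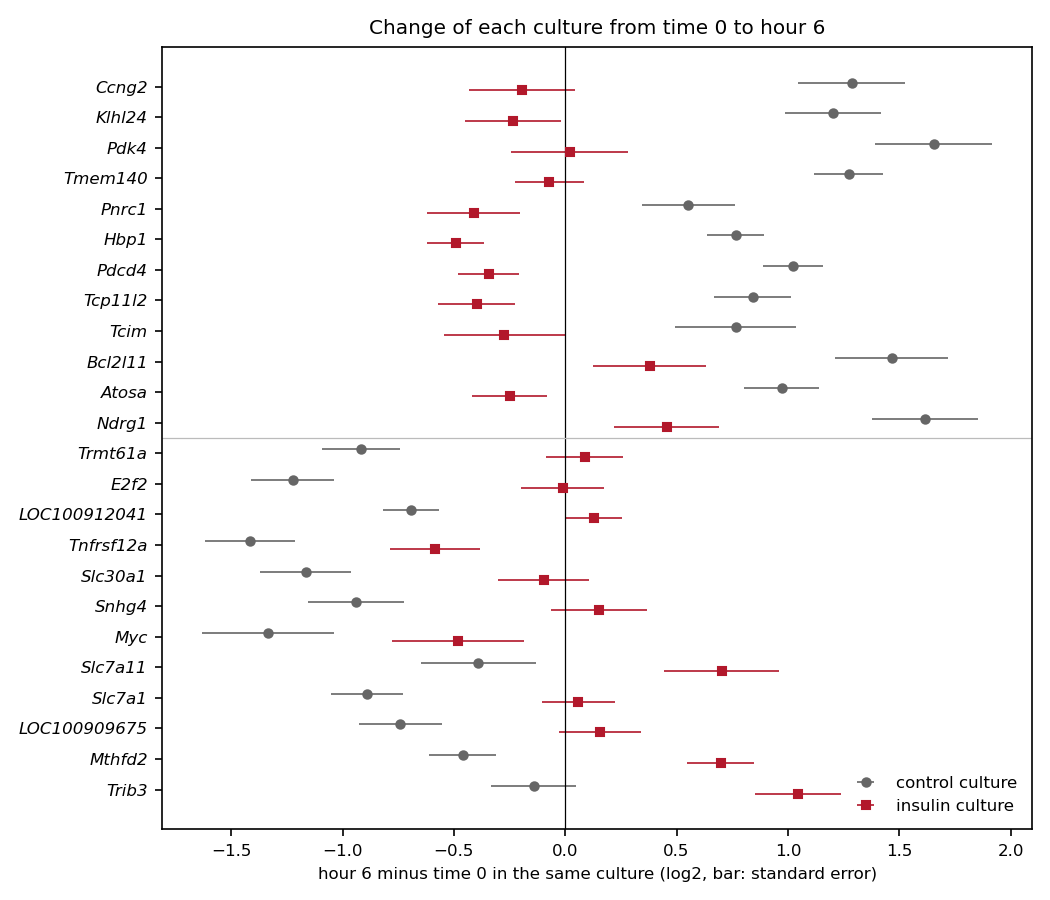
Change from time 0 to hour 6 (log2, bars for the standard error) in the control culture (grey circles) and the insulin culture (red squares) of the 12 genes with the largest falls (above the line) and the 12 with the largest rises. For Ccng2 the control culture lies at 1.29 and the insulin culture at -0.19, and for Trib3 they lie at -0.14 and 1.04.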

How the data were processed

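RNA of L6 myotubes was hybridised to Affymetrix rat expression arrays. The deposited values are log2 levels that the authors made by background subtraction, quantile normalization and RMA (version not given in the sources used here). The detection calls the authors filtered on were not used here. The 22000 brightest probe sets by mean level were tested instead, leaving out 57 manufacturer controls. Of all probe sets, 20832 carry a single symbol, 436 carry several and 9831 are unnamed here. Genes were read at their brightest tested probe set. In limma 3.58.1 (R 4.3.3), every pair of an insulin and a control array of the same hour and letter had its own term, with 1 insulin minus control difference for each hour, a variance trend and 17 residual degrees of freedom. The fit held 52 of the 53 arrays, since the control array of letter a at hour 3 has no partner here. Tests were two-sided, with Benjamini-Hochberg adjustment. The labels place the letters on different days, and deviations from the group means correlated at 0.207 to 0.787 in 26 pairs. The code was checked on simulated data. Precision is limited by the 3 arrays per group. Genes were named as the 12 largest rises and falls, up to 4 called members of each of 38 lists, a set of pathway genes, and the largest changes over time. The members and lists were chosen with earlier results of these data known. Promoters are from RefSeq (GRCr8).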

Additional observations from a re-analysis of the deposited data

Results flagged for a closer look

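For 47 of the named genes the insulin minus control difference at hour 6 departed from its mean at hours 1 and 2 at an adjusted p under 0.05, by a limma test of the change itself, and each value is that change on the log2 scale. Of all 11585 tested genes 194 passed this test. Most named genes were chosen for their difference at hour 6 or for this change, on the same arrays, so a high count was built in and is no separate evidence. Among the genes lower with insulin, the change was largest for Klhl24 (-1.58), Tcp11l2 (-1.31), Ccng2 (-1.31), Pdcd4 (-1.27), Atosa (-1.25), Hbp1 (-1.19), Pdk4 (-1.04), Tcim (-1.02), Tmem140 (-1.001), Ndrg1 (-0.97) and Bcl2l11 (-0.93). Signaling, Myc network, cell cycle and clock genes that moved down were Gab1 (-0.77), Mxi1 (-0.77), Ddit4l (-0.75), Rbl2 (-0.67), Sesn1 (-0.65) and Nr1d2 (-0.55). Autophagy and other genes that moved down were Rb1cc1 (-0.71), Bnip3l (-0.59), Gabarapl1 (-0.43), Mat2b (-0.41) and Zfand5 (-0.35). Among the genes higher with insulin, some of the amino acid response, amino acid transport, serine and folate metabolism, and aminoacyl-tRNA synthetases and partners moved up. They were Mthfd2 (1.25), Trib3 (1.23), Slc7a5 (1.22), Slc7a1 (1.09), Yars1 (0.79), Slc1a4 (0.78), Psph (0.76) and Aimp2 (0.42). Ribosome production and translation genes that moved up were Rrs1 (0.66), Gar1 (0.58), Gnl3 (0.57), Tsr1 (0.55), Polr1e (0.53), Eif4ebp1 (0.48), Trmt61a (0.99) and Snhg4 (1.04). The remaining genes that moved up were LOC100909675 (0.98), Tnfrsf12a (0.99), E2f2 (0.93), Sqle (0.84), Myc (0.78), Vegfa (0.68), Slc2a1 (0.65), LOC100912041 (0.62) and Hspa9 (0.39).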

How the results depend on the processing

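Without the pairing by letter (no replicate block), 8 genes were higher and 39 lower, 1 gene departed from time 0 and 4 from hours 1 and 2, and the control and insulin cultures changed in 254 and 20 genes, against 186, 259, 83, 194, 1315 and 407. The cause was not tested. With the letter as 1 block over all hours, 116 were higher, 46 departed from time 0 and 77 from hours 1 and 2. In the arrays of hour 6 alone, 94 were higher and 145 lower. With letter b at hours 0 to 5 left out, 58 departed from hours 1 and 2. Leaving out each letter gave 57 to 100 higher, 96 to 136 lower, 21 to 54 departing from time 0 and 34 to 107 from hours 1 and 2, with fewer arrays in each fit. Genes that did not pass changed sign in some settings. Relative to time 0, Insr was at 0.013 and Fos at 0.0437. With the mean of a gene's probe sets, Slc2a4 was at -0.0312, Rheb at 0.11 and Fos at 0.20. With letters left out, Insr ranged from -0.17 to 0.0204, Slc2a4 from -0.0291 to 0.0717, Foxo1 from -0.0876 to 0.0429, Tsc2 from -0.19 to 0.0482 and Fos from -0.19 to 0.0318. Of 90 named genes that passed, 20 did without the pairing, 36 relative to time 0 (Pnrc1, Tcim, Irs2 and Sesn1 did not), 38 with any letter left out, 69 in the arrays of hour 6 alone, 73 with the letter as 1 block (Myc and Slc7a5 did not), and 80 to 89 with letter b at the early hours left out, no filter on dim probe sets, no variance trend, centred arrays or mean probe sets. No called gene changed sign in these settings.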

Other observations

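Several genes outside the lists passed at hour 6 and are named after their values were seen. Lower with insulin were Vsir (-1.02), Crebrf (-0.99), Dab2 (-0.90), Slc17a5, a lysosomal sialic acid exporter (-0.88), and Ypel5 (-0.54). Higher were Gpatch4 (0.83), Pprc1, a coactivator related to PGC-1 alpha (0.73), and Ifrd1 (0.69). The replication licensing genes Cdt1 (0.61) and Orc1 (0.64) were also higher, while 0 of 28 markers of proliferating cells passed in either direction.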
